A study of Mus musculus with 9 samples.

Results

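A group of 44 genes of meningeal fibroblasts and collagen matrix was examined in mouse brain. The genes were listed by name as collagens, matrix proteins, membrane transporters of leptomeningeal fibroblasts, and Abi3bp. The rule holds no measured value, but the list was made with earlier results of these mice known, and the study itself singled out Abi3bp from them. All 44 were found among the 38621 genes of the deposited table, and all 44 were among the 29025 genes tested. Brain RNA came from 9 male C57BL/6 mice, and the sham, ICH, and feb groups had 3 mice each. The ICH mice received 30 μl of their own blood in the brain as a model of intracerebral hemorrhage. The feb mice received blood in the same way after 5 daily doses of febuxostat, which inhibits xanthine oxidase, at 50 mg/kg by gavage. The sham mice received saline according to the study's methods, whereas their labels read untreated. The methods describe chloral hydrate anesthesia and a needle placed in the brain for the model, and mention no gavage of vehicle for the sham and ICH mice. The labels name brain as the tissue, and the dissected region, the share of meninges in it, and the time after injection are not given in the sources used here.

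Fibroblasts of the brain lie mainly in the meninges, in the stroma of the choroid plexus, and around larger vessels. They secrete fibril-forming collagens, small proteoglycans that bind collagen fibrils, and fibronectin, and in the leptomeninges they also carry transporters for amino acids, organic anions, and dicarboxylates. Meningeal fibroblasts are a known source of retinoic acid, insulin-like growth factor 2, and bone morphogenetic proteins for the neighboring brain. Basement membrane collagens, by contrast, are also made in quantity by vascular endothelium and mural cells. In bulk tissue, fewer cells of a type and less RNA per cell cannot be told apart.

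Values are RPKM, reads of a gene relative to the length of its exons and to the reads on all genes of the mouse, so levels can be compared between genes. Between 23065757 and 29538009 reads per mouse were counted on genes. Fold changes are on the scale of log2(RPKM + 0.1), on which changes at low RPKM come out smaller than ratios of RPKM. They were tested with limma in all 9 mice together. A gene was called when its unadjusted p-value was under 0.05 and its fold change was over 2, the criteria of the study, and Benjamini-Hochberg adjusted p-values over all 29025 genes are given beside the calls. With 3 mice against 3, a two-sided exact permutation test of a single gene cannot go below 0.1. No member had an adjusted p under 0.05 in any contrast. The lowest adjusted p of a member in limma was 0.390 (Abi3bp) between ICH and sham, 0.168 (Col9a3) between feb and ICH, and 0.411 (Col9a3) between feb and sham. Among all genes tested, 7, 2, and 1 had an adjusted p under 0.05 in these contrasts, and 3570, 3212, and 2478 had an unadjusted p under 0.05. Of the members, 1, 10, and 8 had an unadjusted p under 0.05.

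The members covered a wide range of levels. The mean RPKM over the 9 mice was 0.293 for Foxd1, the lowest, and 193.9 for Ptgds, the highest, with a median of 2.16. Ptgds makes prostaglandin D2 and is abundant in meninges, choroid plexus, and oligodendrocytes. The next highest member was Col6a1 with 15.5. Among the 44 members, 9 had a mean RPKM under 1 and 5 had one over 10. Lum and Slc47a1 had fewer than 10 reads in at least 1 mouse, and Slc47a1 had 0 reads in feb replicate 1, where 3 reads on 1 kb of exon would correspond to an RPKM of 0.113.

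Mice of the same group differed in these genes more than in most others. The median SD within groups on the log2 scale was 0.583 for the members, 0.283 for all genes tested, and 0.196 for genes that reached an RPKM of 1 in 3 or more mice. It ranged from 0.182 for Col4a2 to 1.12 for Abi3bp. Within each group the members moved together. Among the sham mice, replicate 1 was the highest in 35 of 44 members and replicate 2 the lowest in 38, where 32.2% and 34.1% of all genes tested had these mice at those places. Among the ICH mice, replicate 3 was the lowest in 43 of 44 members, against 38.1% of all genes tested, and the highest was replicate 1 in 27 members and replicate 2 in 16, against 43.3% and 30.7%. Among the feb mice, replicate 1 was the lowest in 34 and replicate 2 the highest in 26, against 34.6% and 30.2%. The mean log2(RPKM + 0.1) over the 44 members was 1.61, 0.63, and 1.26 in the sham, 1.84, 1.63, and 0.71 in the ICH, and 0.35, 1.001, and 0.83 in the feb mice, each in the order of replicates 1 to 3. Sham replicate 2 and ICH replicate 3 thus lay between the feb mice. Because the members shared this order, they are not independent measurements of a group.

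**Figure D1:**
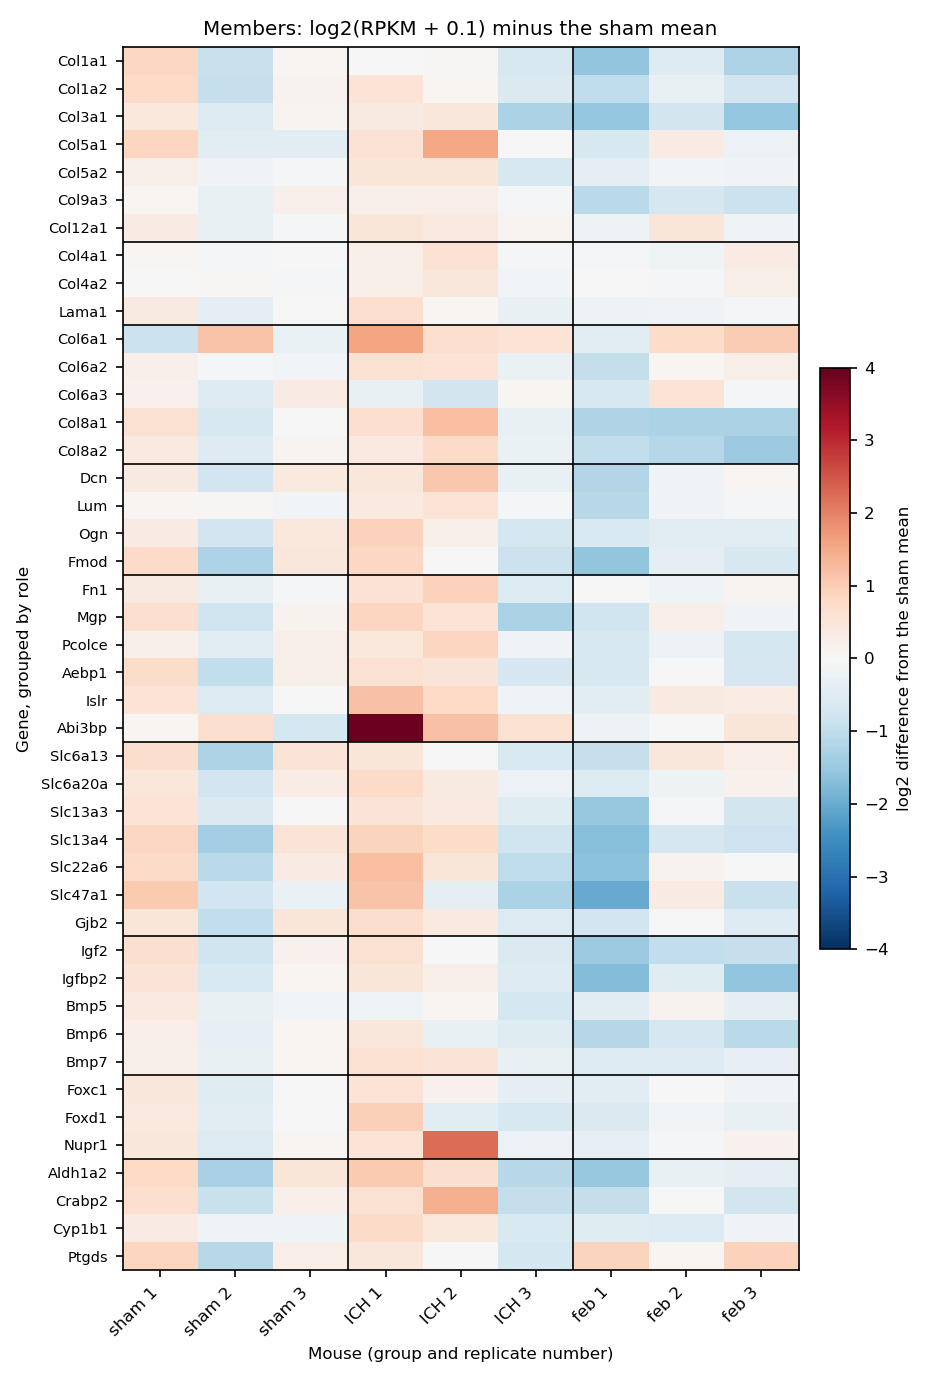
Heat map of the 44 members (rows, grouped by role) in the 9 mice (columns), as log2(RPKM + 0.1) minus the mean of the 3 sham mice, red above and blue below it. Sham replicate 2, ICH replicate 3, and feb replicate 1 are blue in most rows, ICH replicates 1 and 2 are red in most, and Ptgds in the last row is red in feb replicates 1 and 3.

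Markers of other cell types moved with the members in part. The 8 choroid plexus epithelium markers had summed RPKM values of 365 to 1035 in the sham, 458 to 967 in the ICH, and 30.6 to 88.4 in the feb mice, and none was at 0. All 8 (Aqp1, Clic6, Folr1, Kcne2, Kl, Slc4a5, Sostdc1, and Ttr) were called lower in feb than in ICH, against 1.05% of all genes tested. Their log2 fold changes ran from -3.92 to -1.16, with adjusted p-values from 0.105 to 0.213 in limma. All of these markers but Clic6 were also called lower in feb than in sham, against 0.613% of all genes tested. The adjusted p-values in limma were there from 0.133 to 0.477. Ttr, the transthyretin gene and the most abundant of them, had 808, 938, and 437 in the ICH and 24.2, 50.4, and 78.1 in the feb mice. Sham replicate 2 and ICH replicate 3 were also the lowest of their groups in the mean log2 level of this list, with 1.61 and 2.10, whereas the feb mice had -0.34, -0.16, and 0.48. The list therefore separated the feb mice from the other 6, which the mean of the members did not. Several members, Igf2 and Igfbp2 among them, are also known to be expressed in the choroid plexus. The part of the choroid plexus in the results for the members was not tested.

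Other marker lists had smaller differences. For the arachnoid barrier list of 5 genes, the summed RPKM was 6.52 to 9.17 in the sham, 8.15 to 13.2 in the ICH, and 5.51 to 8.04 in the feb mice, and the epithelial keratins Krt8 and Krt18 were called lower in feb than in ICH (adjusted p = 0.378 and 0.234 in limma). Krt18 was also called lower in feb than in sham (adjusted p = 0.565). Cdh1, Dpp4, and Klf5 were called in no contrast. Klf5 was the largest part of the sum in every mouse, with group means of 4.27, 5.48, and 5.08 in the sham, ICH, and feb mice. The 16 other fibroblast markers, which are not members, had mean log2 levels of 0.45, -0.47, and 0.27 in the sham, 0.67, 0.40, and -0.35 in the ICH, and -0.40, -0.02, and -0.03 in the feb mice. Their order of mice within the sham and ICH groups was that of the members. Of these 16, 14 had a fold change below 0 between feb and ICH, with a median of -0.45 on the log2 scale. Only Efemp1, a fibulin gene, was called (adjusted p = 0.415 in limma). Between feb and sham, 13 of the 16 were below 0, with a median of -0.21, and 0 were called. The summed RPKM of the 5 blood genes was highest in ICH replicate 1, at 124, against 26.7 and 27.7 in the other ICH mice. It was 32.3 to 40.6 in the sham and 17.1 to 21.6 in the feb mice. Of these 5 genes, the hemoglobin genes Hba-a1, Hba-a2, Hbb-bt, and Hbb-bs were called lower in feb than in ICH, with a median of -1.46 over the list and adjusted p-values from 0.371 to 0.429, and 3 of the 5 did not overlap. Hba-a1, Hba-a2, and Hbb-bt were called lower in feb than in sham as well (adjusted p from 0.565 to 0.583). Alas2, the other gene of this list, went the other way and was not called. The RPKM of Alas2 was 2.68, 4.11, and 2.71 in the sham, 5.32, 2.77, and 3.45 in the ICH, and 3.36, 5.29, and 7.78 in the feb mice. Of the 8 endothelial and 9 mural cell markers 0 were called in any contrast, with summed RPKM between 41.1 and 57.7 and between 41.7 and 84.6 over the 9 mice. The feb mice lay below all sham mice in 3 of the 8 endothelial and 3 of the 9 mural cell markers, against 4.9% of all genes tested. They lay below all ICH mice in 2 of the 8 and 1 of the 9, against 10.1%, and above either group in 0. All 9 mural cell markers had a fold change below 0 in both contrasts with the feb group, with medians of -0.23 against ICH and -0.28 against sham. Of the marker lists of neurons, astrocytes, oligodendrocytes, microglia, and ependyma, 0 genes were called in the contrasts with the feb group, and Slc17a7, a glutamate transporter gene of cortical neurons, was called higher in ICH than in sham (adjusted p = 0.277). All 4 microglia markers had a fold change below 0 between feb and ICH, with a median of -0.68, and 3 of the 4 did not overlap. Their summed RPKM was 21.3 to 27.96 in the sham, 25.5 to 39.8 in the ICH, and 19.6 to 23.8 in the feb mice. The part of these cell types in the results for the members was not tested.

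**Figure D2:**
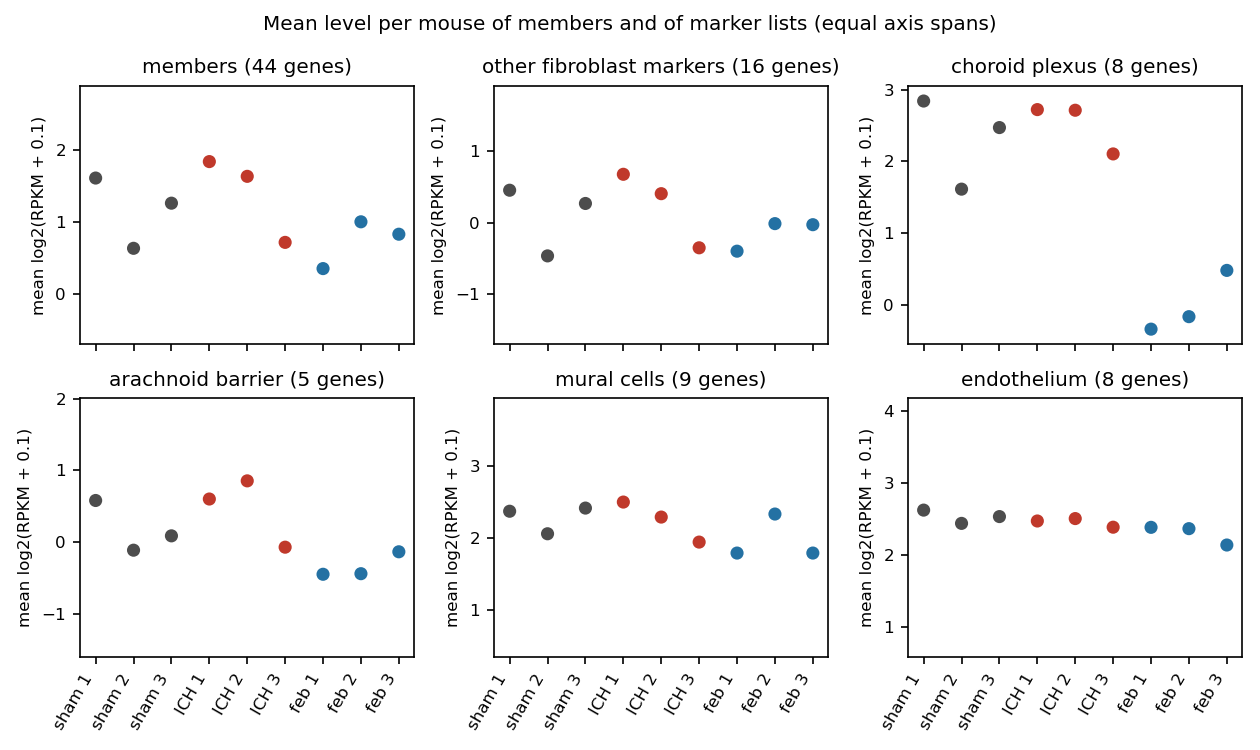
Mean log2(RPKM + 0.1) per mouse of the 44 members and of 5 marker lists, with the same axis span in every panel and mice in the order of replicates 1 to 3 in the sham (gray), ICH (red), and feb (blue) groups. The members overlap between groups, the 8 choroid plexus genes are lower in the 3 feb mice than in the other 6, and the endothelial list varies least.

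The first contrast asked what blood injection did to these genes. Between the ICH and sham groups, 1 member was called higher, Abi3bp, and 0 were called lower, where 1.46% of all genes tested were called higher and 1.07% lower. Since the study had singled out Abi3bp from these same mice, this call is not independent of its choice as a member. The ICH and sham mice did not overlap in 0 of 44 members, whereas 13.2% of all genes tested did not overlap with ICH higher and 6.22% with ICH lower. Of the members, 34 had a fold change above 0, with a median of 0.19 on the log2 scale, while the median of all genes tested was 0.08. This majority rested on single mice, as 26 members were below 0 without sham replicate 2 and 25 without ICH replicate 1. Role by role, the fold changes ranged, for example, from 0.16 to 0.25 in the basement membrane genes and from -0.31 to 0.93 in the type VI and VIII collagens. The number of calls was 0 without sham replicate 3 or ICH replicate 1 and 2 without sham replicate 2 or ICH replicate 3.

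Abi3bp, which encodes a secreted protein of the extracellular matrix, lies on chromosome 16, 56477846 to 56690128 on the plus strand of GRCm38. Its RPKM was 0.779, 1.21, and 0.413 in the sham, 12.7, 1.77, and 1.19 in the ICH, and 0.606, 0.736, and 1.07 in the feb mice. ICH replicate 1 had 1474 reads of the gene, while the other 8 mice had between 55 and 221. ICH replicate 3 lay below sham replicate 2, so that the ICH and sham mice overlapped, whereas all 3 feb mice lay below all 3 ICH mice. In limma the log2 fold change was 1.90 from sham to ICH (adjusted p = 0.390) and -1.83 from ICH to feb (adjusted p = 0.441), each with a standard error of 0.77. Without ICH replicate 1 these became 0.89 and -0.82, and neither was called. The call between ICH and sham was lost in 5 of 16 alternatives, also without sham replicate 1 or sham replicate 3. That between feb and ICH was lost in 9 of 16, also without any one of the feb mice. ICH replicate 1 was also the mouse with the highest summed RPKM of the blood genes. The part of blood in its Abi3bp level was not tested.

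The second contrast asked how brains of febuxostat-treated mice with hemorrhage differed from those with hemorrhage alone. Between the feb and ICH groups, 6 of 44 members (13.6%) were called lower, where 1.05% of all genes tested were called lower. They were Col3a1, Col8a1, Col8a2, Abi3bp, Igf2, and Igfbp2. The study had singled out Abi3bp from these same mice, so counting it here and below is not independent of its choice as a member. No member was called higher, with 1.38% of all genes tested called higher. The groups did not overlap, with feb lower, in 8 members (18.2%), against 10.1% of all genes tested, and in 0 members with feb higher, against 7.04%. The 8 were Col8a1, Col8a2, Col9a3, Pcolce, Abi3bp, Igf2, Bmp6, and Bmp7. The fold change was below 0 in 41 of 44 members (93.2%), with a median of -0.70 on the log2 scale, and in 52.2% of all genes tested, with a median of -0.01. The 3 exceptions were Ptgds, Col6a3, and Bmp5. The number of calls depended on single mice, with 18 without ICH replicate 3, 10 without feb replicate 2, and 3 without either ICH replicate 1 or feb replicate 1. With each mouse left out in turn, between 38 and 43 members were below 0.

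**Figure D3:**
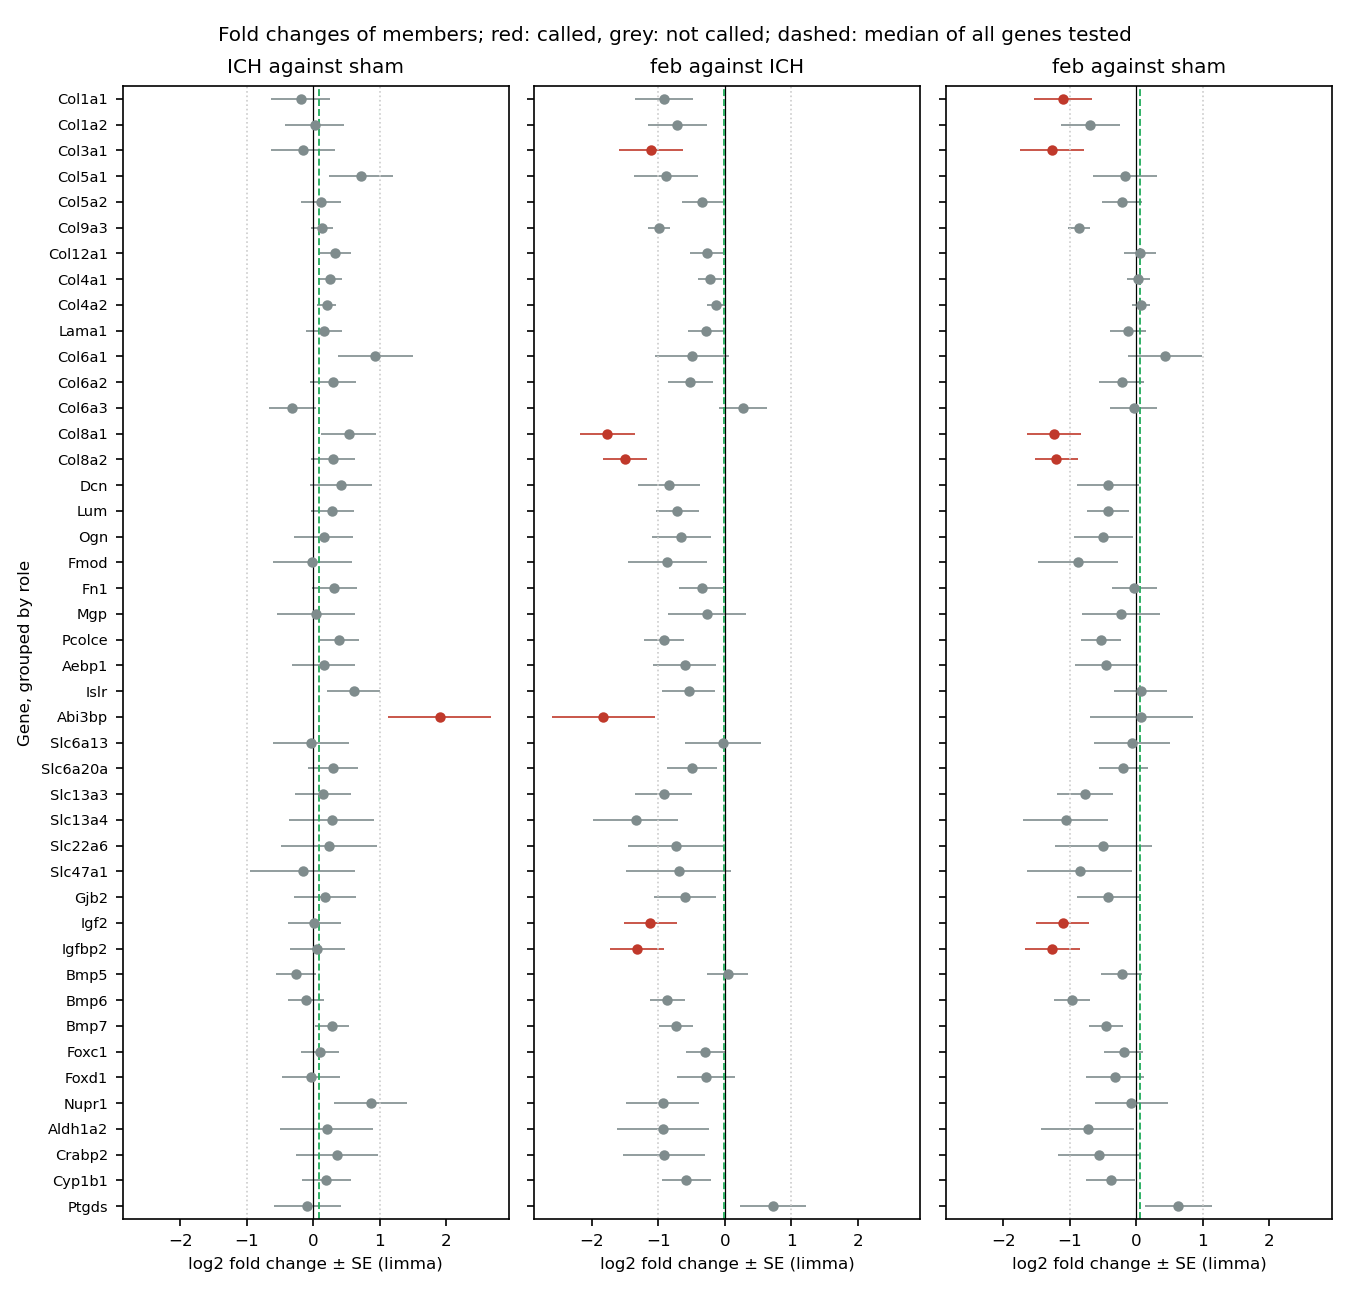
Log2 fold change of each member (points, bars ± standard error from limma) in the 3 contrasts, with called members in red, the median of all genes tested as a dashed line, and dotted lines at a fold change of 2. In the middle panel 41 of 44 points lie left of 0, and 6 are called.

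The fibril-forming collagens build tensile fibrils, and type IX and type XII collagen are associated with the surface of fibrils. All 7 members of this role, Col1a1, Col1a2, Col3a1, Col5a1, Col5a2, Col9a3, and Col12a1, had a negative fold change between feb and ICH, from -1.11 to -0.27. Col3a1 (chromosome 1, 45311538 to 45349706, plus strand) encodes the single chain of type III collagen. Its RPKM was 1.81, 0.881, and 1.44 in the sham, 1.72, 1.84, and 0.494 in the ICH, and 0.393, 0.763, and 0.389 in the feb mice. ICH replicate 3 sat between the feb mice, while every sham mouse lay above them. The log2 fold change between feb and ICH was -1.11 (standard error 0.48, adjusted p = 0.448 in limma), and this call was lost in 10 of 16 alternatives. Col1a1 and Col1a2, the chains of type I collagen, kept close to each other, with a ratio of Col1a1 to Col1a2 of 0.739 to 1.18 over the 9 mice. Col1a1 (chromosome 11, 94936224 to 94953042, plus strand) had an RPKM of 4.94, 1.45, and 2.91 in the sham, 2.79, 2.87, and 1.75 in the ICH, and 0.858, 1.92, and 1.13 in the feb mice. Feb replicate 2 was above ICH replicate 3, and Col1a1 was not called in this contrast.

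Col9a3 (chromosome 2, 180597790 to 180622189, plus strand), a chain of type IX collagen, had the smallest standard error of the members that did not overlap. The RPKM was 7.24, 5.56, and 7.81 in the sham, 7.80, 8.26, and 6.39 in the ICH, and 3.20, 4.23, and 3.71 in the feb mice. All feb mice lay below all 6 others. Its log2 fold change between feb and ICH was -0.99 (standard error 0.16, adjusted p = 0.168 in limma), a fold slightly under 2, and it was not called. It would be called in 4 of 16 alternatives. The genes of the other type IX chains, Col9a1 and Col9a2, are not members and were not called between feb and ICH. Col9a2 had a mean RPKM of 3.44 in the ICH and 3.96 in the feb group, and Col9a1 had 0.257 and 0.179.

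Type VIII collagen is a short-chain collagen that forms lattices in vessel walls and in the basement membrane of the corneal endothelium. Its chains, Col8a1 (chromosome 16, 57624258 to 57754737, minus strand) and Col8a2 (chromosome 4, 126286793 to 126314330, plus strand), had the largest called differences of this contrast after Abi3bp. Col8a1 had an RPKM of 1.72, 0.667, and 1.11 in the sham, 1.79, 2.67, and 0.875 in the ICH, and 0.422, 0.395, and 0.399 in the feb mice. For Col8a2 the values were 1.47, 0.733, and 1.17 in the sham, 1.46, 1.93, and 0.876 in the ICH, and 0.496, 0.432, and 0.328 in the feb mice. In both genes the 3 feb mice lay below all 6 others, as they did in the mean log2 level of the choroid plexus list. They also did so in the members Col9a3, Igf2, Bmp6, and Bmp7. The part of the choroid plexus in the differences of these genes was not tested. The reads behind the values of the feb mice were 57, 51, and 47 for Col8a1 and 59, 49, and 34 for Col8a2. Between feb and ICH the log2 fold change came to -1.77 (standard error 0.41, adjusted p = 0.254 in limma) for Col8a1 and -1.50 (standard error 0.33, adjusted p = 0.234) for Col8a2. The ratio of Col8a1 to Col8a2 was between 0.849 and 1.38 in the 9 mice. Of 16 alternatives, only a pseudocount of 1 ended these 2 calls.

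**Figure D4:**
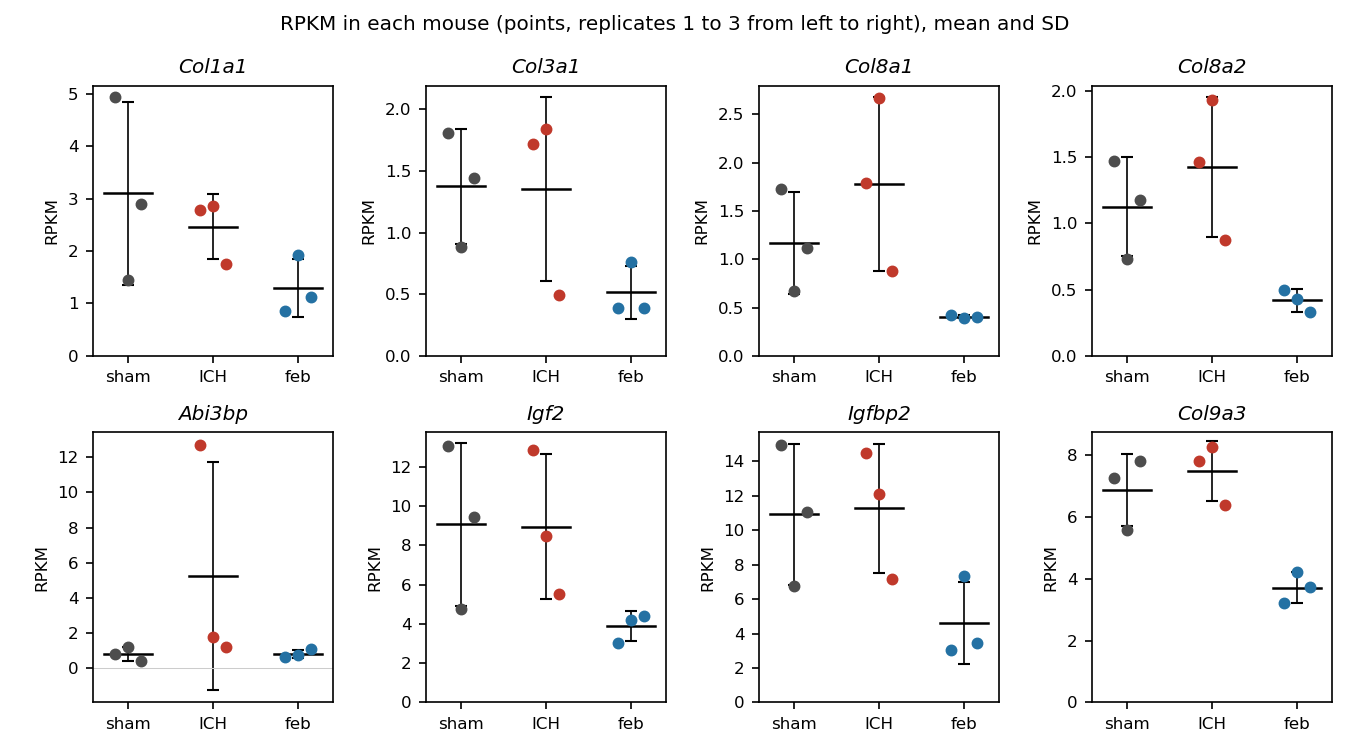
RPKM in each mouse of the 7 members called in any contrast and of Col9a3 (points, replicates 1 to 3 from left to right within a group), with the group mean (wide line) and SD (bars) and the group as color. The feb mice lie below all other mice in Col8a1, Col8a2, Igf2, and Col9a3, and the high ICH mean of Abi3bp comes from replicate 1 with 12.7.

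Col3a1, Col8a1, and Col8a2 were called lower in feb against both other groups and have 1 promoter in the RefSeq table of GRCm38.p6, and the 250 bases before their start sites are shown, 5′ to 3′ on the strand of the gene, to set genes that differed together beside each other. Capitals mark matches, on either strand, to 3 common promoter motifs. These are the CCAAT box, searched by the letters of its name, a TATA box, searched as TATAAA, and the GC box, searched as GGGCGG. The windows are chr1:45311288-45311537 for Col3a1, chr16:57754738-57754987 for Col8a1, and chr4:126286544-126286793 for Col8a2, whose last base is the first of the gene in the deposited annotation.
Col3a1: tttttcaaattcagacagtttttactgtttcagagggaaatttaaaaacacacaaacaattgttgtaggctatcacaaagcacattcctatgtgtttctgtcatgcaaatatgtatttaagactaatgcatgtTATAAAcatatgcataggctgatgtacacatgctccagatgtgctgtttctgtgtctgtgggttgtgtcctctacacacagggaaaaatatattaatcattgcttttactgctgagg
Col8a1: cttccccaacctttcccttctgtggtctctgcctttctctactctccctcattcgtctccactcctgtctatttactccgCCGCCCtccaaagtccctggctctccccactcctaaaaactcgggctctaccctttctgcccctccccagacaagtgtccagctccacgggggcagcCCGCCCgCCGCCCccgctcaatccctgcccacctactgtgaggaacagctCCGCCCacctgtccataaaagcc
Col8a2: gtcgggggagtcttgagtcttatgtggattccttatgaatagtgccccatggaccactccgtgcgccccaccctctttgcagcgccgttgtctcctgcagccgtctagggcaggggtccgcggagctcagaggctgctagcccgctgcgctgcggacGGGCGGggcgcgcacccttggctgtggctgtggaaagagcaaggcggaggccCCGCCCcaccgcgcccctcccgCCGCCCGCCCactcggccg
The Col3a1 window holds 35.2% G and C and a single match, to the TATA box, on the strand of the gene. The Col8a1 window holds 60.8% G and C, and the Col8a2 window 70.0%, and each has 4 matches to the GC box, of which adjoining ones overlap in Col8a2. Over all 32851 promoter windows of the table, 33.85% hold the CCAAT box, 12.37% the TATA box, and 32.74% the GC box. Windows were found for 31 of the 44 members, 38 windows in all, and 10 of these hold the CCAAT box, 2 the TATA box, and 21 the GC box. These matches are a description of letters and say nothing on which factors bind.

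Type VI collagen forms beaded filaments around cells, from chains encoded by Col6a1, Col6a2, and Col6a3. The 3 members were called in no contrast. Col6a1 (chromosome 10, 76708792 to 76726168, minus strand) had an RPKM of 5.43, 21.8, and 8.15 in the sham, 29.9, 15.9, and 14.4 in the ICH, and 7.16, 16.6, and 20.2 in the feb mice. It was 1 of 3 members with sham replicate 2 as the highest sham mouse. Its ratio to Col6a2 ranged from 2.36 to 11.6, so that these partner chains did not keep a fixed proportion, unlike those of type I and type VIII collagen. Col6a1 differed between feb and ICH by -0.50 on the log2 scale (standard error 0.56, adjusted p = 0.762 in limma).

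The members of the basement membrane role differed little. Col4a1 and Col4a2, the main chains of type IV collagen, lie head to head on chromosome 8 and share 22 bases of exon on opposite strands. Col4a2 (11312805 to 11449287, plus strand) had an RPKM of 12.8, 13.3, and 12.5 in the sham, 15.3, 17.6, and 12.1 in the ICH, and 12.9, 12.6, and 15.3 in the feb mice. The groups overlapped, and the log2 fold change between feb and ICH was -0.13 (standard error 0.14, adjusted p = 0.750 in limma). The ratio of Col4a2 to Col4a1 stayed between 0.987 and 1.204 in the 9 mice. Over Col4a1, Col4a2, and the laminin gene Lama1, fold changes ranged from -0.29 to -0.13 between feb and ICH and from -0.13 to 0.07 between feb and sham.

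The small leucine-rich proteoglycans Dcn, Lum, Ogn, and Fmod bind collagen fibrils and regulate their thickness. None of the 4 was called, and all 4 had a negative fold change between feb and ICH, from -0.86 to -0.65. Dcn, which encodes decorin and has the highest mean level of the 4, had an RPKM of 2.58, 1.14, and 2.65 in the sham, 2.76, 4.34, and 1.61 in the ICH, and 0.834, 1.75, and 2.10 in the feb mice. Its groups overlapped, and its log2 fold change between feb and ICH was -0.84 (standard error 0.47, adjusted p = 0.527 in limma).

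Of the other matrix and matrix-processing genes, Fn1, which encodes fibronectin, had the highest level. Fn1 had an RPKM of 12.7, 7.86, and 9.33 in the sham, 14.5, 18.5, and 6.67 in the ICH, and 9.62, 8.56, and 10.52 in the feb mice. ICH replicate 3 was the lowest of all 9 mice, and the log2 fold change between feb and ICH was -0.35 (standard error 0.34, adjusted p = 0.724 in limma). Pcolce, whose product enhances the removal of the procollagen propeptide, had 1.63, 2.25, and 1.08 in the ICH and 0.721, 0.995, and 0.692 in the feb mice, without overlap. At -0.92 on the log2 scale (standard error 0.30, adjusted p = 0.350), Pcolce missed the fold change criterion. Mgp (an inhibitor of calcification), Aebp1, and Islr were not called, with mean RPKM in the feb group of 4.41, 6.50, and 2.58 and in the ICH group of 6.11, 10.4, and 3.97.

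The secreted growth factors and their binding proteins held 2 of the called members. Igf2 (chromosome 7, 142650766 to 142666816, minus strand), an imprinted growth factor gene, had an RPKM of 13.0, 4.75, and 9.45 in the sham, 12.8, 8.47, and 5.52 in the ICH, and 3.02, 4.20, and 4.42 in the feb mice. Every feb mouse lay below every ICH and every sham mouse. Its log2 fold change between feb and ICH was -1.12 (standard error 0.40, adjusted p = 0.378 in limma). This call was lost in 3 of 16 alternatives, with a pseudocount of 1, without ICH replicate 1 (-0.82), and without feb replicate 1 (-0.95). Igfbp2 (chromosome 1, 72824503 to 72852474, plus strand), which encodes a secreted protein that binds insulin-like growth factors, had 14.98, 6.75, and 11.04 in the sham, 14.5, 12.1, and 7.19 in the ICH, and 3.05, 7.36, and 3.43 in the feb mice. Feb replicate 2 lay above ICH replicate 3 and sham replicate 2, so the groups overlapped. The log2 fold change between feb and ICH was -1.32 (standard error 0.41, adjusted p = 0.328), and the call held in all 16 alternatives run for it.

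The bone morphogenetic proteins are ligands of the TGF-beta family. Bmp6 had an RPKM of 3.53, 2.29, and 3.06 in the sham, 4.0, 2.35, and 2.08 in the ICH, and 1.25, 1.79, and 1.31 in the feb mice. Bmp7 had 2.69, 1.87, and 2.47 in the sham, 3.62, 3.37, and 1.85 in the ICH, and 1.56, 1.60, and 1.83 in the feb mice. Both were lower in all 3 feb mice than in all 6 others, for Bmp7 narrowly, as feb replicate 3 and ICH replicate 3 were next to each other. Their log2 fold changes between feb and ICH were -0.86 (standard error 0.27, adjusted p = 0.328 in limma) and -0.74 (standard error 0.25, adjusted p = 0.368), under the fold change limit. Bmp5 had at most 61 reads in a mouse and shares 46.7% of its exon bases with a gene on the other strand, Gm26903. Whether the counting used strand is not given in the sources used here.

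The 7 transporter and gap junction genes, Slc6a13, Slc6a20a, Slc13a3, Slc13a4, Slc22a6, Slc47a1, and Gjb2, mark leptomeningeal fibroblasts and handle neurotransmitter amino acids, proline, dicarboxylates, sulfate, and organic ions. All 7 had a negative fold change between feb and ICH, from -1.34 to -0.03, and 0 were called. Slc13a3, the dicarboxylate transporter gene with the highest level of the 7, had an RPKM of 4.86, 2.20, and 3.36 in the sham, 4.79, 4.35, and 2.36 in the ICH, and 1.09, 3.14, and 1.94 in the feb mice. Feb replicate 2 lay above ICH replicate 3, and limma gave a log2 fold change of -0.92 with a standard error of 0.43 (adjusted p = 0.463).

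Among the regulators, Foxc1 and Foxd1 are forkhead transcription factors of the meningeal lineage, and Nupr1 is a stress-induced nuclear protein. None of the 3 was called in any contrast. Nupr1 had an RPKM of 3.41, 1.67, and 2.62 in the sham, 3.69, 12.1, and 2.10 in the ICH, and 1.94, 2.33, and 2.81 in the feb mice, with ICH replicate 2 alone at the high value. Its log2 fold change between feb and ICH was -0.94 (standard error 0.55, adjusted p = 0.550 in limma), and over 16 alternatives it ranged from -1.48 to -0.24. Foxc1 had group means of 2.62, 2.82, and 2.21 in the sham, ICH, and feb mice.

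The genes for retinoid, prostaglandin, and oxidative metabolism, Aldh1a2, Crabp2, Cyp1b1, and Ptgds, were called in no contrast. Crabp2 and Cyp1b1, which encode a retinoic acid binding protein and a monooxygenase, had mean RPKM of 2.05 and 0.530 in the ICH group and 0.870 and 0.292 in the feb group. Aldh1a2, which makes retinoic acid in meninges, had a mean RPKM of 3.84 ± 2.30 in the sham, 4.45 ± 2.75 in the ICH, and 2.04 ± 0.863 in the feb group (SD, n = 3 each). Ptgds (chromosome 2, 25466709 to 25470046, minus strand) went the other way from most members. Its RPKM was 281, 71.2, and 186 in the sham, 213, 154, and 94.6 in the ICH, and 285, 165, and 296 in the feb mice. The groups overlapped, and the log2 fold change between feb and ICH was 0.72 (standard error 0.50, adjusted p = 0.610 in limma). In the sham and ICH mice Ptgds had the same order as most members, with replicate 1 highest and sham replicate 2 and ICH replicate 3 lowest.

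The third contrast compared the feb group with the sham group, and it shares the feb mice with the second. Called lower were 6 of 44 members (13.6%), Col1a1, Col3a1, Col8a1, Col8a2, Igf2, and Igfbp2, against 0.613% of all genes tested. Called higher were 0 members, against 1.59% of all genes tested. The feb mice lay below all sham mice in 7 members (15.9%), Col3a1, Col8a1, Col8a2, Col9a3, Igf2, Bmp6, and Bmp7, against 4.9% of all genes tested, and above them in 0 members, against 7.78%. The fold change was below 0 in 37 members, with a median of -0.42, and in 41.2% of all genes tested, with a median of 0.05. The log2 fold changes of the called members were -1.10 (standard error 0.44) for Col1a1, -1.27 (0.48) for Col3a1, -1.24 (0.41) for Col8a1, -1.20 (0.33) for Col8a2, -1.11 (0.40) for Igf2, and -1.27 (0.41) for Igfbp2, and their adjusted p-values in limma lay between 0.565 and 0.580. Of 16 alternatives for each gene, the call was lost in 7 for Col1a1, 5 for Col3a1, 4 for Igf2, 2 for Col8a1, 2 for Igfbp2, and 1 for Col8a2. Leaving out sham replicate 1 ended all of these calls but that of Col8a2. Col9a3 and Bmp6, which were not called, had -0.87 (0.16) and -0.97 (0.27). Without sham replicate 2 the number of calls was 12, and it was 1 without sham replicate 1, 3 without sham replicate 3, and 2 without feb replicate 1. By group means over the 44 members, ICH was the highest group in 33, where it was highest in 41.2% of all genes tested, and feb was the lowest in 34, against 27.7%.

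Further genes of the same pathways were examined as lists without the members. Among 30 other collagen genes, Col6a4 was called higher in ICH than in sham (log2 fold change 1.502, standard error 0.31, adjusted p = 0.286 in limma), and 0 were called between feb and either other group. Of 26 genes for collagen processing and crosslinking, such as lysyl oxidases and prolyl hydroxylases, Adamts14 was called higher in feb than in sham (1.10, adjusted p = 0.583), and 0 were called in the other contrasts. Of 23 other genes of basement membrane and interstitial matrix, Nid2, which encodes a nidogen of basement membranes, was called lower in feb than in ICH (-1.05, standard error 0.19, adjusted p = 0.197). Its RPKM was 1.199, 1.18, and 1.01 in the sham, 1.38, 1.64, and 1.06 in the ICH, and 0.588, 0.665, and 0.541 in the feb mice. In this list 21 of 23 fold changes were below 0 between feb and ICH, with a median of -0.30.

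Of 17 TGF-beta signaling genes 0 were called in any contrast, and all 17 were below 0 between feb and ICH, with a median of -0.33. Of 20 other BMP pathway genes, Bmp3 was called higher in ICH than in sham (1.64, adjusted p = 0.347 in limma) and lower in feb than in ICH (-1.32, adjusted p = 0.416), with RPKM of 0.650, 0.605, and 0.298 in the sham, 1.94, 2.68, and 1.02 in the ICH, and 0.357, 1.505, and 0.457 in the feb mice. Feb replicate 2 lay above ICH replicate 3. Among 14 retinoic acid genes, Aldh1a1, an aldehyde dehydrogenase gene that also marks midbrain dopamine neurons, was called lower in ICH than in sham (-1.20, adjusted p = 0.345), with 55.0, 27.1, and 47.3 in the sham and 16.7, 13.0, and 26.7 in the ICH mice. In the IGF axis of 9 further genes, Igfbp6 was called lower in feb than in ICH (-1.19, adjusted p = 0.447), with 10.47, 11.4, and 7.90 in the ICH and 2.17, 6.59, and 5.26 in the feb mice. Between feb and ICH the lists other than TGF-beta signaling and matrix had medians between -0.31 and -0.11, all nearer to 0 than the -0.70 of the members. These values are a description, since neither the members nor the lists were drawn at random.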

How the data were processed

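Total RNA of brain tissue from 9 mice was depleted of rRNA, marked with UMIs, and sequenced. According to the paper, the authors trimmed reads with Trimmomatic 0.36, collapsed reads of the same UMI to a consensus, aligned the result to GRCm38, used featureCounts (Subread 1.5.1) to count exon reads, tested with edgeR 3.12.1, and deposited RPKM values for each mouse. Which annotation was used, and how strand and reads matching more than 1 gene were treated, is not given in the sources used here. RPKM values multiplied by exon length gave whole reads for 100% of values (tolerance 0.05), and 23065757 to 29538009 reads per mouse were recovered. The mice of each group differed by more than counting noise (chi-square per gene 13.9 to 48.5), and no copies were found among them.

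Groups were taken from the labels. Replicates are separate mice. limma 3.58.1 (R 4.3.3; lmFit, eBayes with trend) was fitted to log2(RPKM + 0.1) of the 29025 genes that reached an RPKM of 0.1 in 3 or more mice, with all 9 mice in the fit and no block. The members and lists were chosen with earlier results of these data known. Values in every mouse are given for members called in any contrast, Abi3bp, and the member with the highest mean RPKM of each role, and list genes are named where called. Bmp6, Bmp7, and Pcolce were added because their groups did not overlap, and Bmp5, Foxc1, Aldh1a2, Crabp2, Cyp1b1, Mgp, Aebp1, and Islr after their values were seen. Promoters came from RefSeq and exon overlaps from the deposited positions. The test was checked on simulated reads in which genes varied independently of each other. That check does not cover genes that move together within a group, as the members did. Tables and figures were made with Python 3.11.15, pandas 2.3.3, numpy 2.4.6, and matplotlib 3.10.9. Alternatives were other pseudocounts, filters, scalings, a block for the replicate number, a fit of 2 groups, voom, eBayes without trend, other criteria, and each mouse left out.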

Additional observations from a re-analysis of the deposited data

How the results depend on the processing

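The main counts of called members were 1 between ICH and sham, 6 between feb and ICH, and 6 between feb and sham. With a pseudocount of 1, which makes fold changes at low RPKM smaller, they were 0, 1, and 1, with Igfbp2 the remaining call in both contrasts. Abi3bp still had a fold change over 2 there but missed the p threshold, while Col1a1, Col3a1, Col8a1, Col8a2, and Igf2 came under the fold change criterion. With an adjusted p under 0.05 in limma as the criterion they were 0, 0, and 0, where 1, 10, and 8 members had an unadjusted p under 0.05. A p without the fold change criterion gave 10 between feb and ICH, and a fit of only the 2 groups gave 0 between ICH and sham. With each mouse left out in turn the counts ranged from 0 to 2, from 3 to 18, and from 1 to 12, and the cause was not tested. Voom on the recovered reads gave 1, 6, and 7, and between feb and ICH it called Col9a3 in place of Abi3bp. With the replicate block the counts were 1, 4, and 5. The labels of same-numbered mice share only the number and give no pairing. The 9 same-numbered pairs had correlations of -0.127 to 0.019, with 0 over 0.1, and differently numbered pairs ran from -0.121 to 0.166. With 3 mice per group and low values in both kinds of pairs, these correlations cannot exclude a shared batch. The other settings moved no count by over 1.5 times. For the 26 fold changes of named members, 416 alternative values were computed. Of these, 346 had the same status as the main fit, called or not called, 50 lost a call, 20 gained one, and 0 changed sign. The 346 include results called in neither, such as those of Col6a1, Fn1, Ptgds, and Col4a2 between feb and ICH, each in 16 of 16 alternatives. They are therefore not a count of calls that held. Scaling to equal medians moved the median of all genes from 0.08 to -0.02 between ICH and sham, with 15 instead of 10 members below 0. Counting error is largest for the members with few reads, such as Slc47a1 (0 to 73 per mouse), Lum (8 to 37), and Foxd1 (10 to 41).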
